A study of Mus musculus with 24 samples.

Results

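Genes that serve antigen presentation on MHC class II molecules were followed in bone marrow and liver after bleeding. The 10 genes are H2-Aa, H2-Ab1, H2-Eb1, H2-Eb2, H2-DMa, H2-DMb1, H2-Oa, H2-Ob, Cd74 and Ciita, and they were chosen by name. The array carries 20 probes for these 10 genes, out of 56605 probes and 37074 gene names. The measurements come from 24 single-colour Agilent arrays in 6 groups of 4 samples, with 4 mice at each time. On a count of 4 mice at each time, the marrows and livers of that time would share mice and not be independent. Whether same-numbered marrow and liver came from 1 mouse is not stated in the sources used here, which bears on each comparison between the tissues. Bone marrow and liver were each sampled from unbled mice (0 h) and from mice bled by retro-orbital phlebotomy 24 or 48 h earlier. All mice were male and Erfe-/-, the unbled group included, so the data hold no group with an intact Erfe gene, and the age of the mice is not given in the sources used here. Erfe encodes erythroferrone, a hormone that erythroblasts release after blood loss. Each level is the log2 signal of 1 probe relative to the 75th percentile of its array, and levels of different probes are not compared with each other.

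MHC class II molecules are pairs of an alpha and a beta chain that show peptides from the endosomal route to CD4+ T cells. In mouse the alpha chain H2-Aa pairs with the beta chain H2-Ab1, and H2-Eb1 is the beta chain of the second classical pair. They are made by B cells, dendritic cells and some macrophages, and marrow and liver hold such cells among many that make none. Cd74, the invariant chain, fills the groove until H2-DM, the pair of H2-DMa and H2-DMb1, helps to exchange its remnant for a peptide, while H2-O, the pair of H2-Oa and H2-Ob, restrains H2-DM, chiefly in B cells. Ciita encodes the transactivator that carries no DNA binding of its own and joins factors that sit on the X and Y boxes of class II promoters.

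Of the 20 member probes, 16 passed the filter on dim signal in marrow, covering all 10 genes, and 14 passed in liver, covering 9 genes. To pass, a probe had to be flagged as well above background in every replicate of 1 or more of the 3 times. The probes that passed in neither tissue were H2-Eb2 A_52_P97751, H2-DMb1 A_55_P1972989, H2-Ob A_55_P2057931 and Ciita A_55_P2736700. In liver H2-Eb2 A_55_P2004761 was above background on 0 of 12 arrays and H2-Ob A_51_P254625 on 5 of 12, so neither passed there. H2-Ab1 A_55_P1962747 and A_55_P2146560 overlap, at 34406296 to 34406355 and 34406305 to 34406363 of mm9 chromosome 17, so the 4 probes of that gene are not 4 independent measurements. The placement of probes in exons or UTRs was not analysed here.

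The 2 probes for Erfe were above background on 0 of 12 livers, and in marrow on 0 and 1 of 12. That 1 spot, at -2.60, was on marrow 24 h replicate 2. The same array carried liver transcripts: over 10 hepatocyte genes its median signal was 13.4% of the liver mean, against 0.0346% or less on the other marrow arrays. Erythroid genes, which mark marrow, averaged 5.23 or more on every marrow array. The 75th percentile lay between 694 and 942 intensity units in marrow and between 354 and 467 in liver. Between 32009 and 35700 probes were above background on a marrow array and 28014 to 34428 on a liver array. Because marrow 24 h replicate 2 was also the lowest of its group on 14 of 16 member probes, the counts at 24 h, and the calls that change, are also given without it.

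Class II promoters are known for an X box followed by a Y box at a fixed distance, and these are shown because most of the matched members share them. RefSeq windows of GRCm38.p6, running from 250 bases before to 50 after the start of a gene, were matched for 7 of the 10 members, in 8 windows. The search looked upstream of the start, on the strand of the gene, for an X core of GNAAC and, 25 to 35 bases further from first base to first base, a Y core of GATTGG, the reverse complement of a CCAAT box. The spacing was set after the windows had been read. Both cores at this spacing were found in 6 of the 7 genes and in neither of the 2 windows of H2-DMa. The share over all windows was 0.286%, 94 of 32851. A match is a description of letters, not a binding site. The stretches are printed with the X core first and the Y core second in capitals.
H2-Aa (chr17:34287863-34287910, strand -): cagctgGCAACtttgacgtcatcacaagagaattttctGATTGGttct
H2-Eb1 (chr17:34305770-34305816, strand +): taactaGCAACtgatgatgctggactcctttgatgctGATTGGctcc
H2-Eb2 (chr17:34325537-34325583, strand +): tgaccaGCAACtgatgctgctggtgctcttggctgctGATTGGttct
H2-DMb1 (chr17:34153091-34153138, strand +): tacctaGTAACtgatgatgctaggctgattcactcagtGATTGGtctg
H2-Oa (chr17:34092297-34092344, strand +): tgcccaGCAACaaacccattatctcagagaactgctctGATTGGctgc
H2-Ob (chr17:34238812-34238856, strand +): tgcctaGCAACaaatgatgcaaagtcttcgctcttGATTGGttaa
In these 6 the X core is GCAAC except in H2-DMb1, where it is GTAAC, and the distance from X core to Y core is 32 bases in H2-Aa, H2-DMb1 and H2-Oa, 31 in H2-Eb1 and H2-Eb2 and 29 in H2-Ob. The Y core alone, on either strand, is common, with 14.6% of all windows holding it, and the X core alone is in 79.6%.

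**Figure D1:**
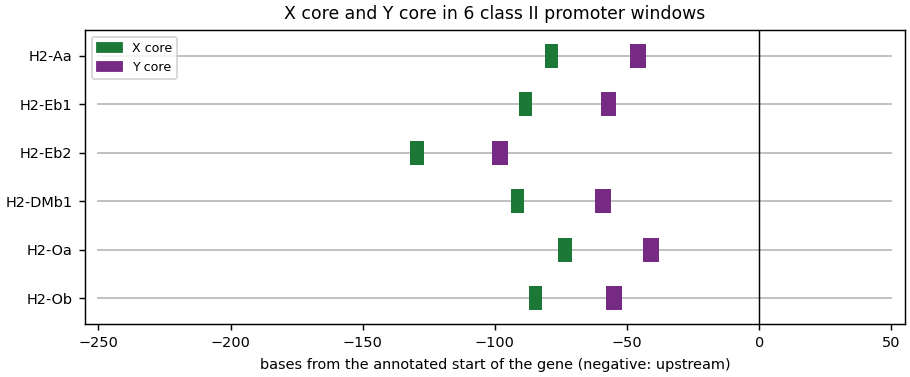
Position of the X core (green) and Y core (purple) in the promoter windows of 6 member genes, in bases from the annotated start of the gene, with negative values upstream. The Y core ends 38 bases before the start in H2-Oa and 95 bases before it in H2-Eb2, with the other 4 genes between 43 and 56.

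In the unbled mice the members were higher in marrow than in liver relative to each array's 75th percentile. By limma over all 24 arrays, with Benjamini-Hochberg adjustment over the 34402 probes kept in either tissue, 15 of 16 member probes were higher in marrow and 0 lower. This stands against 40.5% of all probes called higher and 38.7% called lower. Among the largest differences were those of the H2-O subunits. H2-Oa was at -0.10, 0.34, 0.10 and 0.42 in the 4 marrows and at -3.77, -4.20, -2.75 and -3.78 in the 4 livers (replicates 1 to 4 in order, here and below), 14.1-fold higher in marrow (log2 difference 3.81, SE 0.23, adjusted p 2.64e-12), with 3 of 4 livers above background. H2-Ob A_66_P130916 was 13.1-fold higher (log2 difference 3.71, SE 0.21). In liver both signals were near background, and with normexp background correction the log2 differences were 2.36 for H2-Oa and 2.57 for H2-Ob A_66_P130916. H2-Eb2, a beta chain gene next to H2-Eb1, was at -2.94, -3.25, -3.50 and -3.05 in marrow and above background in 0 of 4 livers, so it was at least 2.44-fold higher in marrow.

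The genes of the classical chains were close in both tissues by comparison. H2-Aa was 2.12-fold, H2-Eb1 1.78-fold, the 4 H2-Ab1 probes 1.59-fold to 1.82-fold and Cd74 1.49-fold higher in marrow, and for each of these probes the 4 marrow arrays lay above the 4 liver arrays. H2-DMa was 4.11-fold and H2-DMb1 2.98-fold higher, and Ciita A_66_P119948 2.76-fold, again with no overlap. Ciita A_55_P2741198 (1.43-fold, adjusted p 0.0391) and H2-Ob A_51_P254625 (3.01-fold, adjusted p 0.0441) were called with overlapping arrays, under 25 of 33 and 16 of 32 alternatives. Ciita A_55_P2035003 was not called (difference 0.25, interval -0.37 to 0.88). The median difference of the member probes was 0.97, against 0.04 over all probes. With quantile scaling it was 1.34, against 0.11 over all probes. Over the alternatives the log2 difference ran from 0.64 to 1.34 for H2-Ab1 A_55_P1962747. It ran from 0.68 to 1.33 for H2-Eb1 and from 0.40 to 1.06 for Cd74. With normexp background correction, which moves the median of all probes to -0.25, 13 of 16 member probes were called and Ciita A_55_P2035003 changed sign to -0.25.

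**Figure D2:**
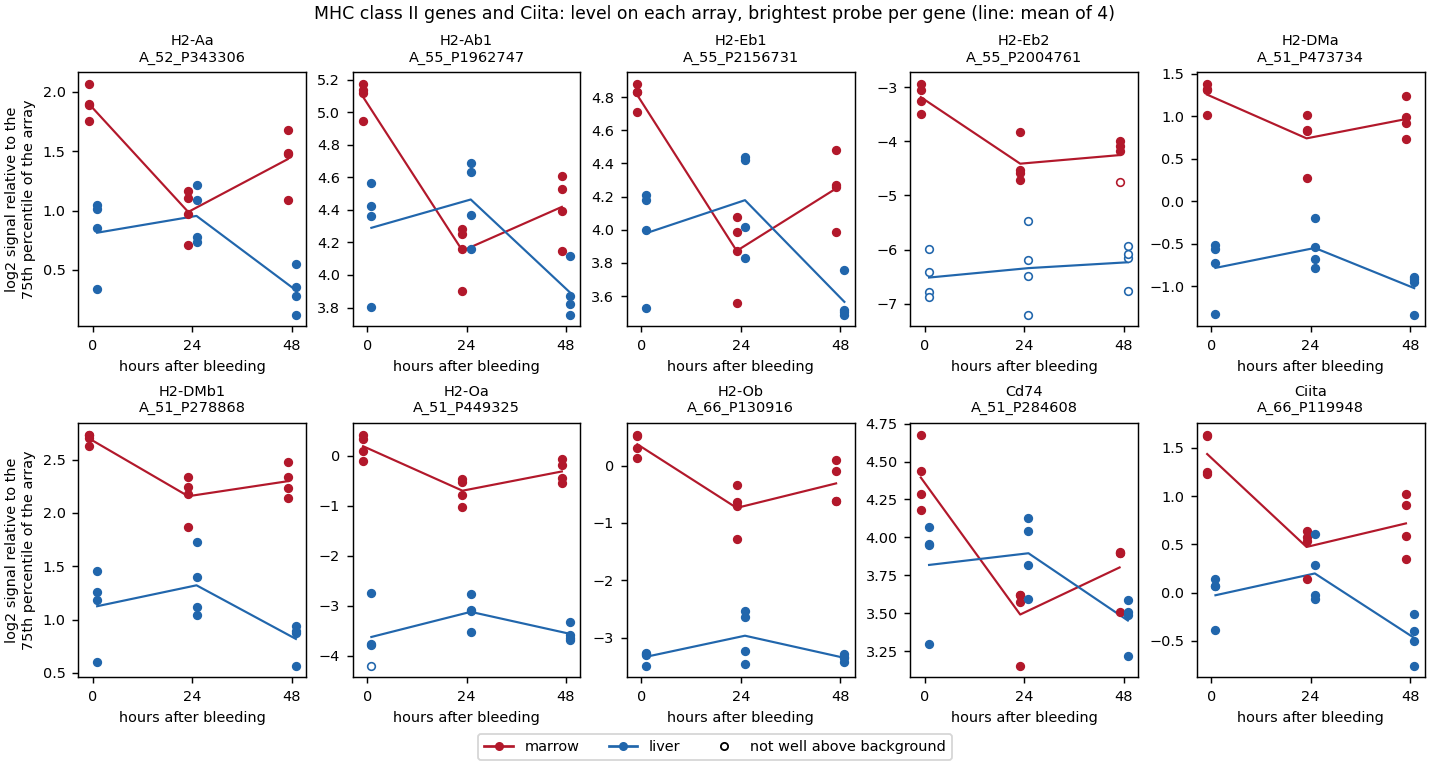
Level of the brightest kept probe of each of the 10 genes on all 24 arrays, as log2 signal relative to the array's 75th percentile, against hours after bleeding, for marrow (red) and liver (blue). Points are single arrays, lines join the means of 4 arrays, open points are not well above background, and each panel has its own vertical scale. In marrow the 24 h points lie below the 0 h points in every panel but that of H2-DMa, where replicate 3 at 24 h reaches the level of replicate 2 at 0 h.

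Marrow signal of class II genes, relative to the array's 75th percentile, was lower 24 h after bleeding than in unbled mice. Of 16 member probes, 14 were called lower and 0 higher at an adjusted p under 0.05 (limma over the 12 marrow arrays, Benjamini-Hochberg over 32197 probes), for 9 of the 10 genes. Among all probes 0.382% were called lower and 0.817% in either direction. The median change of the 16 was -0.93 on the log2 scale, against -0.03 over all probes, and all 16 fitted changes were below 0, as were 55.8% of all probes. By exact permutation, 4 arrays against 4 cannot give a two-sided p below 0.0286, which holds for the fully separated probes. On 15 of the 16 the 4 arrays at 24 h lay below the 4 at 0 h, a separation seen downward in 4% of all probes. Marrow is a mixed tissue, and fewer cells of a type and less RNA per cell cannot be told apart in these samples.

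Among the classical chains, the alpha chain gene H2-Aa (A_52_P343306, chromosome 17, 34421285 to 34421344) was at 1.89, 2.07, 1.75 and 1.89 at 0 h and at 1.11, 0.71, 0.97 and 1.16 at 24 h. The lowest unbled marrow thus lay above the highest bled one. The level fell by 0.91 (SE 0.14, adjusted p 0.012), to 53.2% of the level at 0 h. Its partner H2-Ab1 (A_55_P1962747, chromosome 17, 34406296 to 34406355) was at 5.12, 5.14, 4.95 and 5.18 at 0 h and 4.29, 3.90, 4.16 and 4.25 at 24 h, a decrease to 51.9% (change -0.95, SE 0.12, adjusted p 0.00413). The other 3 H2-Ab1 probes gave -0.96, -0.91 and -0.97, so the 4 probes of this gene differed by no more than their standard errors of 0.11 to 0.17. H2-Eb1 (A_55_P2156731, chromosome 17, 34453075 to 34453134) was at 4.88, 4.83, 4.71 and 4.83 and then 4.07, 3.56, 3.87 and 3.99, with no overlap and a change of -0.94 (SE 0.13, adjusted p 0.00604). Replicate 2 at 24 h was the lowest array for these 3 genes. Without it the changes were -0.82 for H2-Aa, -0.86 for H2-Ab1 and -0.83 for H2-Eb1, with adjusted p of 0.0304, 0.0114 and 0.0121.

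H2-Eb2 (A_55_P2004761, chromosome 17, 34476934 to 34476993), whose signal was close to background, was at -2.94, -3.25, -3.50 and -3.05 at 0 h and -4.72, -3.82, -4.52 and -4.58 at 24 h, above background on all 8 arrays. Its change was -1.23 (SE 0.22, adjusted p 0.0264). Here replicate 2 was the highest of the bled marrows, not the lowest as on most member probes, and without it the change was -1.43 (adjusted p 0.0114). The call was made under 12 of 22 alternative settings that gave this probe a value, and over these its change ran from -1.43 to -0.65.

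The invariant chain Cd74 (A_51_P284608, chromosome 18, 60972075 to 60972132) followed the classical chains. It was at 4.28, 4.68, 4.18 and 4.44 at 0 h and at 3.57, 3.15, 3.62 and 3.62 at 24 h, where 3 marrows were nearly level and replicate 2 lay below them. The change was -0.90 (SE 0.15, adjusted p 0.0164), and without replicate 2 at 24 h it was -0.79 (adjusted p 0.0356). Without marrow 0 h replicate 2 or 4 the call was lost, with an adjusted p of up to 0.059.

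The genes for the peptide exchange machinery gave smaller values. H2-DMb1 (A_51_P278868, chromosome 17, 34297109 to 34297168) was at 2.73, 2.73, 2.70 and 2.63 at 0 h, where the 4 marrows were nearly level, and at 2.33, 1.87, 2.25 and 2.18 at 24 h. It passed narrowly, with a change of -0.54 (SE 0.11, adjusted p 0.0465), and lost the call on leaving out any of 11 of the 12 marrow arrays, with an adjusted p of up to 0.148. Without 24 h replicate 2 the change was -0.45 (adjusted p 0.0765). H2-DMa (A_51_P473734, chromosome 17, 34274300 to 34274863) was at 1.38, 1.01, 1.31 and 1.31 and then 0.82, 0.28, 1.01 and 0.84. Its groups overlapped, and the change of -0.51 (95% interval -0.87 to -0.16) had an adjusted p of 0.217, not past the threshold under any of 23 alternatives. Without 24 h replicate 2 it was -0.36 (adjusted p 0.325). The position given for this probe spans more than its own length on the genome.

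H2-Oa (A_51_P449325, chromosome 17, 34232033 to 34232092), which restrains H2-DM together with H2-Ob, was at -0.10, 0.34, 0.10 and 0.42 at 0 h and -0.79, -1.02, -0.48 and -0.53 at 24 h, a change of -0.89 (SE 0.16, adjusted p 0.0264). H2-Ob was measured by 2 kept probes. On A_51_P254625 (chromosome 17, 34378131 to 34378190) it went from -2.67, -2.44, -2.33 and -2.20 to -3.42, -4.15, -3.88 and -3.39. The change was -1.30 (SE 0.18, adjusted p 0.00661), and over 22 alternatives it ran from -1.41 to -0.79. On A_66_P130916 the change was -1.11 (SE 0.21, adjusted p 0.04), from 0.13, 0.54, 0.31 and 0.52 to -0.64, -1.28, -0.70 and -0.33. All 3 probes had separated groups, with the lowest value at 24 h on replicate 2. Without that array the changes of H2-Oa (-0.78, adjusted p 0.0684) and of H2-Ob A_66_P130916 (-0.93, adjusted p 0.0781) were not past the threshold, and that of H2-Ob A_51_P254625 was (-1.16, adjusted p 0.0133).

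The activator fell on 2 of its 3 kept probes. Ciita (A_66_P119948, chromosome 16, 10526458 to 10526517) was at 1.25, 1.63, 1.23 and 1.64 at 0 h and at 0.58, 0.15, 0.53 and 0.63 at 24 h. The change was -0.96 (SE 0.17, adjusted p 0.026), to 51.3% of the level at 0 h. A second probe, A_55_P2741198 (10525904 to 10525963), changed by -0.91 (adjusted p 0.0199), with levels of -2.33, -1.99, -2.54 and -2.24 at 0 h and -3.16, -3.24, -3.19 and -3.13 at 24 h. The remaining probe, A_55_P2035003, at 10492271 to 10492330 of mm9 chromosome 16, was at -3.09, -2.46, -3.08 and -3.15 and then -3.36, -3.25, -3.61 and -3.30. Its groups were separated, but the change of -0.44 (SE 0.18, adjusted p 0.36) was not past the threshold, and the unbled replicate 2 stood above the other 3. Without marrow 24 h replicate 2 neither of the called probes kept its call (adjusted p 0.069 and 0.0604), with changes of -0.85 and -0.89.

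The count at 24 h rested on the number of arrays. Without marrow 24 h replicate 2, which carries liver transcripts, 9 of 16 member probes were called and the median change was -0.83. The count was 5 without marrow 0 h replicate 2, 6 without 0 h replicate 4, 7 without 24 h replicate 1, 8 without 24 h replicate 3 and 9 without 0 h replicate 1 or 3, while the median stayed between -0.98 and -0.83 over all 12 arrays left out in turn. The same 5 probes, 3 of H2-Ab1, H2-Eb1 and H2-Ob A_51_P254625, were called in each of these 12 fits. Of all probes these fits called 89 to 267. Each of the 3 slides held arrays of both times, and with the slide as a block 12 of 16 were called (0.665% of all probes). Within the slides the median changes were -0.85, -1.07 and -0.91, each below 0 for 16 of 16 probes.

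**Figure D3:**
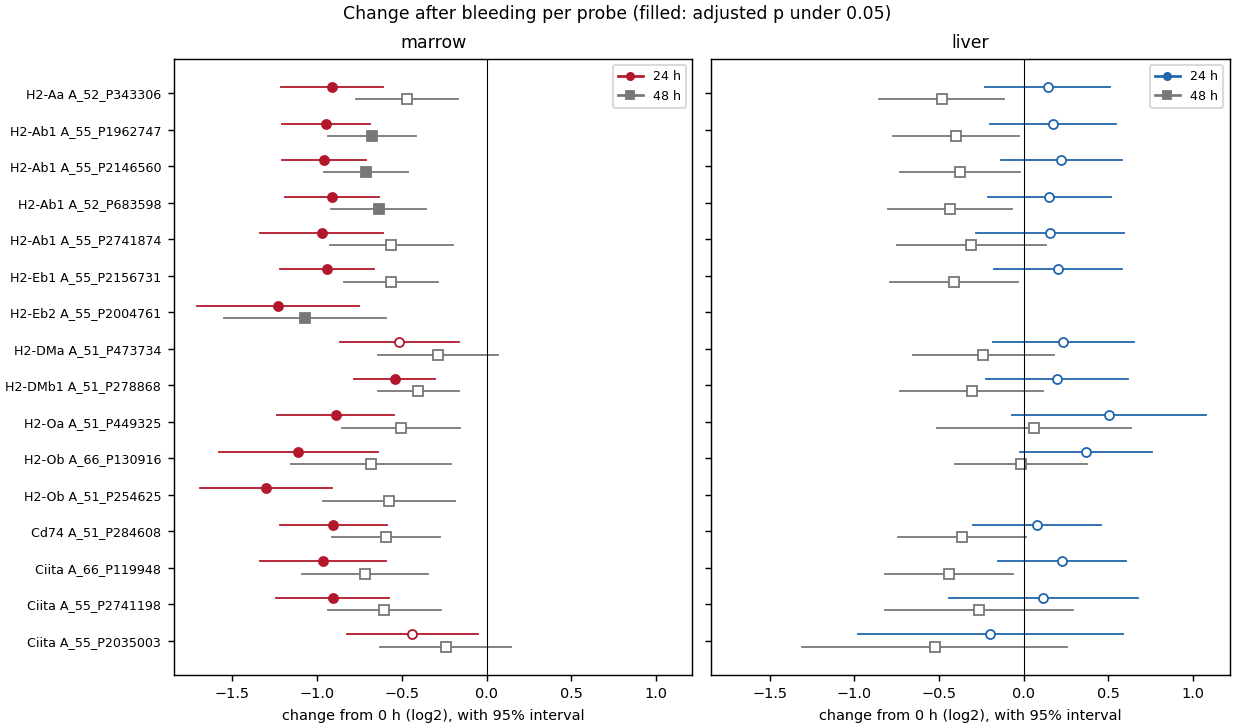
Change from 0 h to 24 h (circles) and to 48 h (squares) for each member probe kept in marrow (left) and liver (right), on the log2 scale with its 95% interval from limma. Filled symbols have an adjusted p under 0.05: 14 at 24 h and 4 at 48 h in marrow, and 0 in liver.

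At 48 h the fitted marrow level of every kept member probe lay between those at 0 and 24 h. Of the 16 member probes, 4 were called lower than at 0 h and 0 higher, against 0.13% of all probes called lower and 1.04% in either direction. All 16 fitted changes were below 0, with a median of -0.58 (0.01 over all probes), against 48.4% of all probes below 0. The groups were separated on 13 (4.14% of all probes), and 14 were lower at an unadjusted p under 0.05 (5.23%). The 4 calls were 3 probes of H2-Ab1, with changes of -0.68, -0.71 and -0.64 (adjusted p 0.0214, 0.0129 and 0.0419), and H2-Eb2 with -1.07 (adjusted p 0.0449, 7 of 22 alternatives).

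H2-Ab1 A_55_P1962747 was at 4.53, 4.14, 4.61 and 4.39 at 48 h, all below the 4 unbled marrows. H2-Eb2 was at -4.08, -4.00, -4.76 and -4.17, with replicate 3 not above background. Over 22 alternatives its change from 0 h ran from -1.18 to -0.50. H2-Aa, at 1.48, 1.09, 1.68 and 1.48, was also separated from 0 h, with a change of -0.47 that did not pass (adjusted p 0.139). The same held for H2-Eb1, at 4.27, 3.99, 4.48 and 4.26 (change -0.56, adjusted p 0.0615). Cd74 was at 3.90, 3.51, 3.90 and 3.90, where 3 arrays were level and replicate 2 lower (change -0.59, adjusted p 0.0846). Ciita A_66_P119948 was at 0.91, 0.59, 0.35 and 1.03 (change -0.72, adjusted p 0.0752). H2-DMa (-0.29), H2-DMb1 (-0.40), H2-Oa (-0.50) and the H2-Ob probes (-0.68 and -0.57) did not pass either.

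The 48 h calls varied with the fit. H2-Ab1 A_55_P2146560 was called under 18 of 22 alternatives, A_55_P1962747 under 15 of 23 and A_52_P683598 under 10 of 22. The count was 4 with quantile scaling (1.14% of all probes called), 5 with normexp (1.07%) and 6 with the authors' values (1.31%). It was 7 with an intensity trend (1.64%) and 8 with array weights (3.44%). With the slide as a block 1 of 16 probes was called (0.401% of all probes), and within the slides the medians were -0.52, -0.57 and -0.61. Over all probes, fits with 1 array left out called 116 to 479. Leaving out 1 array gave 0 calls without marrow 0 h replicate 1 or 2 or 48 h replicate 2, 1 without 0 h replicate 4 or 48 h replicate 4, 2 without 24 h replicate 1 or 3, 0 h replicate 3 or 48 h replicate 1, 3 without 24 h replicate 4, 4 without 48 h replicate 3 and 7 without 24 h replicate 2. From 24 to 48 h 0 of 16 member probes were called and 7 had an unadjusted p under 0.05 (limma called 1 of 32197 probes, 0.00311%, and 6.28% were higher at an unadjusted p under 0.05). All 16 fitted changes were above 0, where 40.1% of all probes were below 0. Their median was 0.29, and the highest was 0.73 for H2-Ob A_51_P254625 (adjusted p 0.483), the 1 probe with separated groups (3.05% of all probes). A rise from 24 to 48 h was thus not established for any member.

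In liver none of the 14 member probes passed in the 3 comparisons between times (0 calls by limma). The test called 0% of all 28784 probes in each of these comparisons, with 10.7%, 6.04% and 7.75% at an unadjusted p under 0.05. At 24 h 13 of 14 fitted changes were above 0, while 55.5% of all probes were below it, with a median of 0.19 (-0.02 over all probes) and 0 with an unadjusted p under 0.05. H2-Aa was at 1.02, 0.34, 0.85 and 1.05 at 0 h and 1.21, 1.09, 0.74 and 0.78 at 24 h, with overlapping groups (change 0.14, 95% interval -0.23 to 0.51). H2-Ab1 A_55_P1962747 was at 4.57, 3.80, 4.37 and 4.43 and then 4.69, 4.64, 4.16 and 4.37 (change 0.17, interval -0.20 to 0.55). On 13 of 14 probes the highest liver at 24 h was replicate 1, and on 11 of 14 the lowest at 0 h was replicate 2. Within the slides the median change was 0.57, 0.22 and -0.17, so its sign differed between slides.

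H2-Ob A_66_P130916 was the member with the lowest unadjusted p in liver at 24 h. It was at -3.28, -3.27, -3.31 and -3.49 at 0 h and -2.54, -2.63, -3.23 and -3.47 at 24 h, with 3 of 4 bled livers above all unbled ones (change 0.37, adjusted p 0.483). H2-Oa changed by 0.50 (interval -0.07 to 1.08), Ciita A_66_P119948 by 0.23 (interval -0.15 to 0.60) and Cd74 by 0.08 (interval -0.30 to 0.46). None of these intervals excluded 0.

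Of the 14 liver changes from 0 to 48 h, 13 were below 0 (55.3% of all probes), with a median of -0.37 (-0.02 over all probes) and 6 with an unadjusted p under 0.05, against 3.54% of all probes lower at that p. Between 24 and 48 h all 14 were below 0 (49.3% of all probes), with a median of -0.49 (0.00 over all probes) and 10 with an unadjusted p under 0.05, against 3.97% of all probes lower. For 9 probes the 4 livers at 48 h lay below the 4 at 24 h, as did 2% of all probes. The smallest adjusted p was 0.439, for Ciita A_66_P119948, so none was established by the test over all probes.

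Ciita A_66_P119948 was at 0.61, 0.28, -0.03 and -0.07 at 24 h and -0.50, -0.40, -0.76 and -0.22 at 48 h (change -0.67, SE 0.17), with 4 of 4 later livers lower. H2-Aa, at 0.12, 0.28, 0.36 and 0.55 at 48 h, changed by -0.63 (SE 0.17, adjusted p 0.445) from 24 h. H2-Eb1 was at 4.44, 4.42, 3.83 and 4.02 at 24 h and 3.51, 3.50, 3.49 and 3.76 at 48 h (change -0.61, adjusted p 0.479). Its 3 lowest livers at 48 h were nearly level, and replicate 4 stood above them. Cd74 changed by -0.44 (adjusted p 0.579), from 4.13, 4.04, 3.59 and 3.82 to 3.22, 3.49, 3.59 and 3.51. H2-DMa (-0.47) and H2-DMb1 (-0.50) also had separated groups, and H2-Oa (-0.44) and H2-Ob (-0.39) did not. Within the slides the median change from 24 to 48 h was -0.93, -0.71 and -0.17.

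With all 24 arrays as independent, the test of the difference itself called 7 of 14 member probes at 24 h. With same-numbered marrow and liver of one time as a block it called 0 of 14. The 7 were called lower in marrow than in liver (limma interaction over 24 arrays, Benjamini-Hochberg over 26579 probes), against 0.162% of all probes called lower and 0.41% in either direction. They belong to 5 genes: H2-Aa, H2-Ab1 with 3 probes, H2-Eb1, H2-Ob and Ciita. H2-Eb1 changed by -0.94 in marrow and 0.20 in liver, a difference of -1.14 (SE 0.22, adjusted p 0.0258). H2-Ob A_66_P130916 had the largest difference, -1.48 (adjusted p 0.0276), with -1.11 in marrow and 0.37 in liver. For Ciita A_66_P119948 it was -1.19 (adjusted p 0.0378). Cd74 (-0.98, adjusted p 0.0658), H2-Oa (-1.39, 0.054), H2-DMa (-0.75, 0.212) and H2-DMb1 (-0.74, 0.159) did not pass.

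These calls depended on how the tissues were paired and on single arrays. With same-numbered marrow and liver of one time as a block, as would be fitting if they came from 1 mouse, 0 of 14 member probes were called (0.0113% of all probes, 3 of 26579), with the same differences and adjusted p of 0.0912 or more for the 7. With no filter on dim signal 0 member probes were called (0.0318% of all probes, 18 of 56605). Without marrow 24 h replicate 2, H2-Aa (adjusted p 0.0741), H2-Ab1 A_52_P683598 (0.0538) and Ciita A_66_P119948 (0.0739) lost their calls, and the other 4 kept theirs at 0.025 to 0.0465. Marker probes were called as well in the fit that takes the 24 arrays as independent. List counts with the block are not given here. Of the mature B cell list 4 of 19 probes were called lower (0.162% of all probes). At an unadjusted p under 0.05, 18 of 19 were lower, where 5.49% of all probes and 13 of 14 member probes were. The median difference of the mature B cell list was -1.07, beside -1.09 for the members. The dendritic cell list had 2 of 16 called lower (median -0.50) and the T and NK cell list 1 of 12 (median -0.74). The monocyte and macrophage list had 0 of 17 called and 6 lower at the unadjusted p (median -0.31). The neutrophil list had 0 of 7 called and 0 lower (median -0.91). The mature B cell list had 1 called and a median of -0.91 without marrow 24 h replicate 2. The part of these cells in the tissue difference was not tested.

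Leaving out single arrays moved the count of all probes called between 20 and 220, and that of member probes between 1 and 10. It was 1 without liver 24 h replicate 1 or 2 or marrow 0 h replicate 2, 3 without marrow 24 h replicate 1 or marrow 0 h replicate 4, 4 without marrow 24 h replicate 2 or liver 0 h replicate 4, and 10 without liver 24 h replicate 3. H2-Ab1 A_55_P2146560 was the member called in all 24 of these fits, with a highest adjusted p of 0.0399. At 48 h 0 of 14 member probes differed between tissues past the threshold and 1 was lower at an unadjusted p under 0.05 (3.73% of all probes), while 0.421% of all probes were called. The median difference there was -0.24, and for H2-Aa it was 0.02 with a 95% interval of -0.44 to 0.48.

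The factors that bind class II promoters, and other proteins of the pathway, were taken as a list of 17 genes with 33 kept probes in marrow. At 24 h their median was 0.00, and at an unadjusted p under 0.05, 3 were lower and 3 higher. Of the 33, 1 was called lower and 0 higher, against 0.382% and 0.435% of all probes. That 1 was Cd83, which stabilises class II at the surface, with -0.67 (SE 0.10, adjusted p 0.012), and -0.64 (adjusted p 0.0356) without marrow 24 h replicate 2. The X box factors Rfx5 (0.03), Rfxap (0.00) and Rfxank (-0.05) and the Y box factors Nfya, Nfyb and Nfyc (-0.17 to 0.09 over their probes) did not pass. Among the proteases, cathepsin S, Ctss, changed by -0.28 and the 2 probes of cathepsin L, Ctsl, by 0.42 and 0.47, none past the threshold. H2-DMb2, the second H2-DM beta chain gene, changed by -1.26 with an adjusted p of 0.132; it is closely alike to H2-DMb1, and whether their probes share transcripts was not tested.

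Regulators of Ciita and the interferon gamma pathway gave 0 calls among 28 probes of 17 genes, with a median of -0.24. At an unadjusted p under 0.05, 4 were lower, beside 6.53% of all probes. Without marrow 24 h replicate 2 there were again 0 calls, with a median of -0.19 and 2 lower. Pax5, a B cell factor, changed by -0.59 and -0.60 on its 2 probes (adjusted p 0.1 and 0.501), and Spi1, the factor PU.1, by -0.01. Among MHC class I genes and their peptide supply 0 of 23 probes were called and 2 were lower at an unadjusted p under 0.05. Their median was -0.19 and the values ran from -0.30, for the class I activator Nlrc5, to 0.11.

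Beside the class II values stand markers of cells that carry class II, and of other marrow cells. Of the mature B cell list, 16 genes with 24 probes, 2 probes were called lower and 0 higher, 18 had a lower value at an unadjusted p under 0.05, and the median was -0.67. Over all probes 0.382% were called lower, 0.435% were called higher and 6.53% were lower at that unadjusted p. The list had 0 calls without marrow 24 h replicate 2, with 13 lower at an unadjusted p under 0.05 and a median of -0.56. The called probes were those of Cxcr5, the receptor that leads B cells to follicles (-1.86, adjusted p 0.0275), and of Cr2, complement receptor 2 (-1.15, adjusted p 0.0453). The mean level over the genes of the list was 1.01 to 1.68 on the 0 h arrays, 0.34 to 0.94 at 24 h and 0.51 to 1.32 at 48 h, and all 16 were above background on some array of each group. In the list of B cell precursors 0 of 13 probes were called, and the median was -0.23 at 24 h and -0.38 at 48 h. At an unadjusted p under 0.05, 5 of 13 were lower at 24 h and 6 at 48 h, against 6.53% and 5.23% of all probes. Without marrow 24 h replicate 2, 2 of 13 were lower at 24 h, with a median of -0.19. The mean level of that list was 1.71 to 2.22, 1.25 to 1.90 and 1.03 to 1.82 at the 3 times. The part of a change in B cells in the class II values was not tested.

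Of the dendritic cell list 2 of 20 probes were called lower, both of Ccr7, which guides cells to lymph nodes (-1.23 and -1.16, adjusted p 0.0081 and 0.0122), with a median of -0.30 and 10 lower at an unadjusted p under 0.05. Its mean level, over 12 genes with a kept probe, was -0.28 to -0.09 at 0 h and -0.77 to -0.48 at 24 h. At 24 h 1 of the 13 genes of the list was above background in no marrow. Of the T and NK cell list 4 of 16 were called lower, Cd8b1, Cd8a, Lck and Cd3d, and 8 were lower at the unadjusted p, with a median of -0.50 and a mean level of 0.02 to 0.18 at 0 h and -0.82 to -0.29 at 24 h. Without marrow 24 h replicate 2 the dendritic cell list had 2 called, both of Ccr7 (median -0.26), and the T and NK cell list 2, Cd8b1 and Cd8a (median -0.39). Monocytes and macrophages gave 0 of 18 called and 10 lower at an unadjusted p under 0.05 (median -0.26). Plasma cells gave 0 of 9 called and 2 lower (median -0.12), Kupffer cells 0 of 7 and 2 (-0.18), and neutrophils 0 of 12 and 0 (-0.09). Without that array the Kupffer cell list had 5 of 7 lower at the unadjusted p (median -0.56) and the plasma cell list 4 of 9 (-0.30). The erythroid list gave 1 higher of 14 at 24 h (median 0.11) and 3 higher at 48 h (median 0.50), where 0.435% and 0.91% of all probes were called higher, with a mean level of 5.23 to 5.65 at 0 h and 5.66 to 6.01 at 48 h. The hepatocyte list had a median of 1.02 at 24 h, 0 of 7 called, with its mean level between -4.36 and, on replicate 2, 7.06. Without that array its median was -2.36 and that of the erythroid list 0.12, with 0 called in both. The part of any of these lists in the class II values was not tested.

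**Figure D4:**
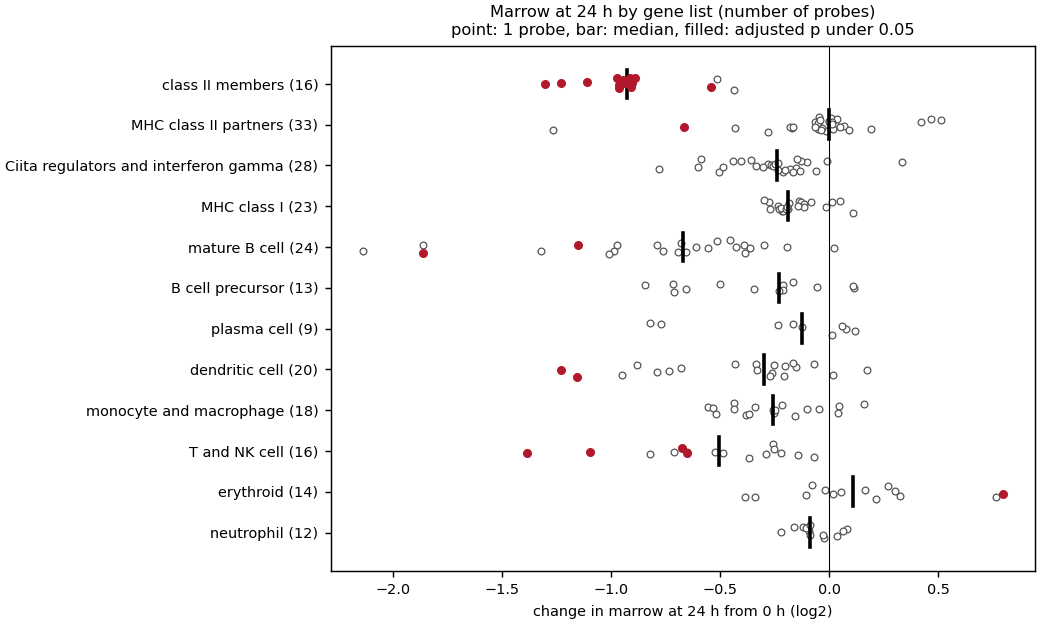
Change in marrow from 0 to 24 h for every kept probe of the class II members and of 11 gene lists, on the log2 scale. Each point is 1 probe, bars are medians and filled points have an adjusted p under 0.05. The class II members centre at -0.93, mature B cells at -0.67, T and NK cells at -0.50 and class II partners at 0.00.

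In liver no probe of these lists was called, where 0 of all 28784 probes were. At 24 h the mature B cell list had a median of 0.30, the dendritic cell list 0.21 and the Kupffer cell list 0.02. At an unadjusted p under 0.05, 7 of 19 mature B cell and 2 of 17 dendritic cell probes were higher. Of the Kupffer cell list 1 of 8 was lower, and 10.7% of all probes passed in either direction. From 24 to 48 h the medians were -0.36, -0.19 and 0.03, and that of the T and NK cell list was -0.58. At that unadjusted p 6 of 19 mature B cell, 3 of 17 dendritic cell and 6 of 12 T and NK cell probes were lower. Of the Kupffer cell list 1 of 8 was higher, and 3.97% of all probes were lower. The neutrophil list had a median of 0.80 at 24 h and of -1.20 from 24 to 48 h with 0 of 7 called and 0 at an unadjusted p under 0.05.

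The members were also set against the mean of 4 of their own, the brightest probes of H2-Aa, H2-Ab1, H2-Eb1 and Cd74, over the 12 marrow arrays. These arrays come from 3 times and share the changes described above, so the correlations describe these arrays only. Among probes outside the members the most alike were Wdfy1 (Pearson r 0.979), Prr5 (0.977) and the T cell gene Cd8b1 (0.975), followed by Cdip1, Nupr1l, Klra16, Ly9, Gimap4, Nsg2 and Gimap6, the last at 0.940. Of the members that did not enter the mean, H2-DMb1 stood at 0.951, H2-Ob at 0.915 and 0.908 and H2-Oa at 0.890. Ciita A_66_P119948 stood at 0.888, Ciita A_55_P2741198 at 0.871 and H2-DMa at 0.827. H2-Eb2 reached 0.672 and Ciita A_55_P2035003 was the least alike at 0.487. After removal of the group means H2-DMb1 stood at 0.807, H2-DMa at 0.640 and the H2-Ob probes at 0.559 and 0.618. Ciita A_66_P119948 then stood at 0.456, H2-Oa at 0.452, Ciita A_55_P2741198 at 0.289, Ciita A_55_P2035003 at -0.27 and H2-Eb2 at -0.65. Outside the members, Wdfy1 then stood at 0.86, Prr5 at 0.87, Cd8b1 at 0.86 and Gimap6 at 0.62. In liver the most alike outside the members were Il2rb (0.957), Usp12 (0.954), Nkg7 (0.943), Ccl5 (0.939) and Slx4ip (0.922), of which Il2rb, Nkg7 and Ccl5 are expressed in T and NK cells.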

How the data were processed

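RNA of 24 samples (liver and bone marrow, 4 mice at each of 3 times) was hybridised to single-colour Agilent arrays. The intensities are those the scanner software, Feature Extraction 10.10.1.1 per the submitters' processing notes, deposited per spot. Per the file headers and columns, the processed intensity is background-subtracted and detrended within an array and is not scaled between arrays. The authors' deposited value table holds log2 values, whose normalization is not given in the sources used here; it served as an alternative.

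Each processed intensity was taken as log2 after division by the 75th percentile of its array, control spots left out, and spots of one probe were averaged. Each tissue's 12 arrays were fitted together with limma 3.58.1 in R 4.3.3 (lmFit, eBayes), without a block, and p-values were adjusted by Benjamini-Hochberg over all kept probes. Tissue contrasts used all 24 arrays as independent samples, which does not hold where the tissues share mice. A block of same-numbered marrow and liver was tried as an alternative after seeing the data, like the lists without marrow 24 h replicate 2. Scripts were tested on simulated data. The members and the gene lists were chosen with earlier results of these data known. Every probe of the 10 genes is accounted for, the partner and regulator lists are given by counts with the called and textbook members named, and the alike genes are the highest Pearson correlations. Alternatives were quantile scaling, normexp (offset 50), other filters, slide and replicate blocks, an intensity trend, array weights, the authors' values, 1 probe per gene, 2 times only and each array left out. Each slide held 8 arrays of all groups. The number of arrays limits the precision. Probe positions are mm9 per the file headers, and promoter windows are RefSeq on GRCm38.p6. The number of probes above background is given in place of depth.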

Additional observations from a re-analysis of the deposited data

Results flagged for a closer look

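In groups of 4 arrays, 7 of 90 combinations of member probe and group held an array set apart from the other 3 by Dixon's criterion, which chance meets in about 1 in 20. In marrow, Cd74 A_51_P284608 was set low on replicate 2 at 24 h (3.15) and on replicate 2 at 48 h (3.51), and Ciita A_55_P2035003 was set high on replicate 2 at 0 h (-2.46). The 24 h array is the one that carried hepatocyte transcripts. In liver, replicate 2 at 0 h was set low for Cd74 (3.30) and for Ciita A_66_P119948 (-0.38). At 48 h, H2-Eb1 A_55_P2156731 was set high on replicate 4 (3.76) and H2-DMa A_51_P473734 low on replicate 1 (-1.34).

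With the 24 arrays taken as independent, the change at 24 h differed between marrow and liver in the limma interaction test for 7 member probes. The marrow change minus the liver change was -1.05 for H2-Aa A_52_P343306 (adjusted p 0.0382). For H2-Ab1 it was -1.12 on A_55_P1962747 (0.0233), -1.18 on A_55_P2146560 (0.0141) and -1.06 on A_52_P683598 (0.031), with adjusted p in parentheses. It was -1.14 for H2-Eb1 A_55_P2156731 (adjusted p 0.0258), -1.48 for H2-Ob A_66_P130916 (0.0276) and -1.19 for Ciita A_66_P119948 (0.0378). With same-numbered marrow and liver as a block none of the 7 passed (adjusted p 0.0912 or more), and without marrow 24 h replicate 2 H2-Aa, H2-Ab1 A_52_P683598 and Ciita did not. In marrow alone, all 4 arrays at 24 h lay below all 4 at 0 h for each of these 7 probes. That held for 15 of the 16 member probes kept in marrow and is no comparison with liver.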

How the results depend on the processing

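No member probe that was called changed direction under any alternative run. Called member probes in marrow at 24 h numbered 5 of 20 with no filter (84 of 56605 probes in all). They numbered 9 of 10 with 1 probe per gene (214 of 21400) and 10 to 14 in the other settings with all arrays (0.469% to 1.57%). At 48 h they numbered 0 with no filter (0.163% of all probes), 1 with the slide block (0.401%) and 7 with an intensity trend (1.64%). With array weights there were 8 (3.44%) and with 1 probe per gene 2 (1.06%). With no filter, and with same-numbered marrow and liver as a block (tried after seeing the data), 0 member probes differed between tissues at 24 h. This was in their change from 0 h, and of all probes 18 of 56605 and 3 of 26579 differed. Leaving out single arrays gave 5 to 14 calls in marrow at 24 h, 0 to 7 at 48 h, 1 to 10 for the tissue difference at 24 h and 13 to 15 between tissues at 0 h, and 0 to 0 in the other comparisons of time and tissue. Correlations between the deviations of same-numbered samples ran from -0.25 to 0.17 within a tissue, so the replicate numbers were not taken to pair them. Between marrow and liver of the same time all 12 were above 0 (0.03 to 0.21), 7 of them over 0.1. Of the pairs with other numbers 11 of 36 were above 0, and these come from the same arrays, so they are not independent of the 12. Same-numbered marrow and liver of the same time also lay on the same slide. A shared animal and a shared slide therefore cannot be told apart here. With the replicate block 10 of 16 were called in marrow at 24 h (0.497% of all probes) and 1 at 48 h (0.432%). Low signal limits H2-Eb2, H2-Ob A_51_P254625 and, in liver, H2-Oa and H2-Ob A_66_P130916. With normexp the largest decrease of a member probe in marrow at 24 h was -1.02, against -1.30 in the main fit.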
